A study of Mus musculus with 6 samples.

Results

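The interferon regulatory factors (Irf genes) were followed in 6 SMART-seq libraries, each from 1000 group 2 innate lymphoid cells (ILC2s) sorted from the lungs of neonates. The family was taken as the 8 factors Irf1, Irf2, Irf3, Irf4, Irf5, Irf7, Irf8 and Irf9, plus Irf2bp2, which encodes a corepressor that binds Irf2. These 9 genes were picked by their symbol from the 55394 genes in the files. There is a second entry under the symbol Irf3 and another under Irf7. Their identifiers belong to Zfand4 and Mlf1, so both entries were left out.

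There were 3 libraries in each group. Wild type C57BL/6 dams drank water with ampicillin, metronidazole, neomycin and vancomycin between gestation days 10 and 14, and their pups gave the Abx libraries. Pups of control dams gave the Con libraries, also wild type. The age of the pups at sorting and the number of pups or litters behind each library are not given for these samples in the sources used here, so p-values measure the spread between libraries, which may be technical. Cells were sorted as CD45+Lin-CD90.2+CD25+, with antibodies against T cell, NK cell, B220+ B cell and myeloid markers in the lineage cocktail. The comparison asks whether exposure of the mother to antibiotics changes the transcripts of these factors in neonatal ILC2s.

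Interferon regulatory factors bind DNA through a shared N-terminal domain and recognise repeats of GAAA, the core of the interferon-stimulated response element (ISRE). Irf3, Irf5 and Irf7 wait in the cytoplasm until kinases downstream of nucleic acid sensors phosphorylate them, and then switch on the type 1 interferon genes. Interferon signals back through its receptor to the complex ISGF3, of which Irf9 is a subunit. Irf1 is induced by interferon gamma and activates antigen processing genes, while Irf2 binds the same sites and mostly opposes it. Irf4 and Irf8 act in lymphocytes and myeloid cells as partners of Ets and AP-1 proteins. In ILC2s, interferons are known as brakes on type 2 cytokines.

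Levels are in FPKM, a count of fragments divided by the exon length of the gene and by the mapped reads of the library, so that levels can be set side by side between genes. Total FPKM was 420941 to 489262 per library, and 8574 to 9203 genes reached 1 FPKM in Con against 7074 to 8193 in Abx. Read numbers are unknown, so counting error could not be given, and zeros are written as listed at 0. Of the ILC2 markers, Gata3 was at 76.2, 97.5 and 76.1 FPKM in Con against 95.8, 33.9 and 46.1 FPKM in Abx, while Il1rl1, the IL-33 receptor, reached no more than 2.94 FPKM in any library. Id2 (782 to 1315 FPKM) and Il7r (18.1 to 57.3 FPKM) were present in all 6 libraries. Of the 13 ILC2 markers tested, 0 were higher and 3 were lower in Abx by the unadjusted p, where 4.74% and 6.25% of all genes tested were, and their median log2 fold change was -0.52. The 3 were Icos (241 to 289 FPKM in Con, 82.4 to 120 FPKM in Abx), Areg (657 to 783 and 197 to 393 FPKM) and Arg1 (577 to 675 and 377 to 525 FPKM), none of them called. Xist, the RNA of the inactive X chromosome, was at 3.78 to 5.09 FPKM in Con and listed at 0 in Abx, so the sex of the pups and the treatment cannot be told apart here.

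The sequence before the start of each member was searched for sites of interferon signalling, since receptors of interferons are among the genes measured below. The gamma-activated site (GAS) was searched as TTCNNNGAA, which reads the same on both strands, and the ISRE core as GAAA, any 2 bases and GAAA again, on both strands. All 9 members had a window of the 250 bases before a RefSeq start (12 windows, since Irf1, Irf8 and Irf9 have 2 each). The GAS letters were in a window of each of 3 members (Irf1, Irf2 and Irf8), and 7.02% of all 32851 windows of that length hold them. The second windows of Irf1 and Irf8 held no match. The ISRE core was in the window of Irf2 only, with 2.98% of all windows holding it. The 3 windows with a match are given 5′ to 3′ on the strand of the gene, in build GRCm38.p6, with the matches in capitals.
Irf1, chr11:53769764-53770013 (+): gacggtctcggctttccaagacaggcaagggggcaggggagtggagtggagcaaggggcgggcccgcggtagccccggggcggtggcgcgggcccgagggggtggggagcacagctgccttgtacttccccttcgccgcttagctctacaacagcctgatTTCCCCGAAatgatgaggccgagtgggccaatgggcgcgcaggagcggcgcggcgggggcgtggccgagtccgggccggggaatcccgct
Irf2, chr8:46739495-46739744 (+): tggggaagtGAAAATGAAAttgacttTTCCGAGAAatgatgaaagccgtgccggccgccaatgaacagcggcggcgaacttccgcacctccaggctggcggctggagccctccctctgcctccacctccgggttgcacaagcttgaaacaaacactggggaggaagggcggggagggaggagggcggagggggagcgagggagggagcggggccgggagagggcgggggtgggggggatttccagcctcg
Irf8, chr8:120736108-120736357 (+): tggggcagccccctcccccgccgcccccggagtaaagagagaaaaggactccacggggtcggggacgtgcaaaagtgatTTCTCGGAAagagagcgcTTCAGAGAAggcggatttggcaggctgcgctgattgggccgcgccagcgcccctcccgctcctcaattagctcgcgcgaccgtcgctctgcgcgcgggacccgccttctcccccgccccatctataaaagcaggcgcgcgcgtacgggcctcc
The match of Irf1 begins 90 bases before the start and reads TTCCCCGAA. In Irf2 the ISRE core GAAAATGAAA, 241 bases before the start, is followed by the GAS letters TTCCGAGAA at 224 bases. Irf8 holds TTCTCGGAA at 171 bases and TTCAGAGAA at 153 bases. None of these matches overlaps another. A match is only a description of these letters, not a bound site.

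The family was present in these cells at uneven levels. By the median over the 6 libraries, Irf2bp2 came first with 28.9 FPKM, followed by Irf1 (19.2), Irf3 (18.9), Irf5 (8.55), Irf7 (3.99), Irf8 (3.89), Irf2 (1.75), Irf9 (1.66) and Irf4 (0.02 FPKM). The ranges of all neighbours in this order overlapped. Irf1 was above Irf3 in 4 of 6 libraries, and Irf7 above Irf8 in 4 of 6, so the order within each of these pairs changed between libraries. Irf5 was above Irf7, and Irf9 above Irf4, in 5 of 6 libraries. Differences between neighbours were not tested.

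**Figure D1:**
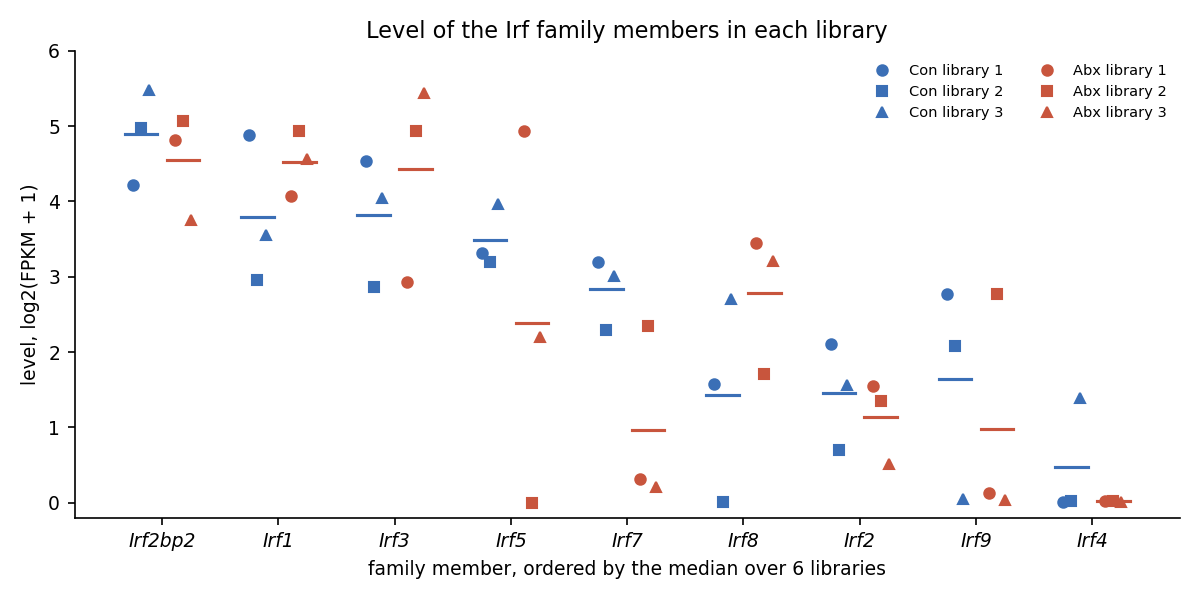
Level of each of the 9 members, as log2(FPKM + 1), in the 3 Con libraries (blue) and the 3 Abx libraries (red). Each point is a library, with the marker shape giving its number, and each line is the mean of a group. In no member do the groups separate. Irf4 lies close to 0 in all libraries but Con library 3, and Irf5, Irf7, Irf8 and Irf9 fall close to 0 in 1 or more libraries.

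Between Abx and Con, no member passed the test. Limma was fitted to log2(FPKM + 1) over the 8718 genes that reached 1 FPKM in 3 or more libraries, and calls needed a more than 2-fold change together with an adjusted p under 0.05. All members but Irf4 were tested. Of these 8 members, 0 were called by limma, beside 0.0574% of all genes tested (0.0459% higher and 0.0115% lower in Abx), and 0 had an unadjusted p under 0.05, beside 11.0% of all genes. The groups overlapped in all 9 members, while they did not overlap in 17.2% of genes tested. The mean of log2(FPKM + 1) was higher in Abx in 3 members (Irf1, Irf3 and Irf8) and lower in 5, of which Irf2 turned positive after quantile normalization. Over the 8, the median was -0.33 on the log2 scale, beside -0.06 over all genes tested. The 95% confidence intervals were wide. Each of the 8 reached past a fold change of 2 in at least 1 direction, so a difference of that size was not excluded for any member.

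**Figure D2:**
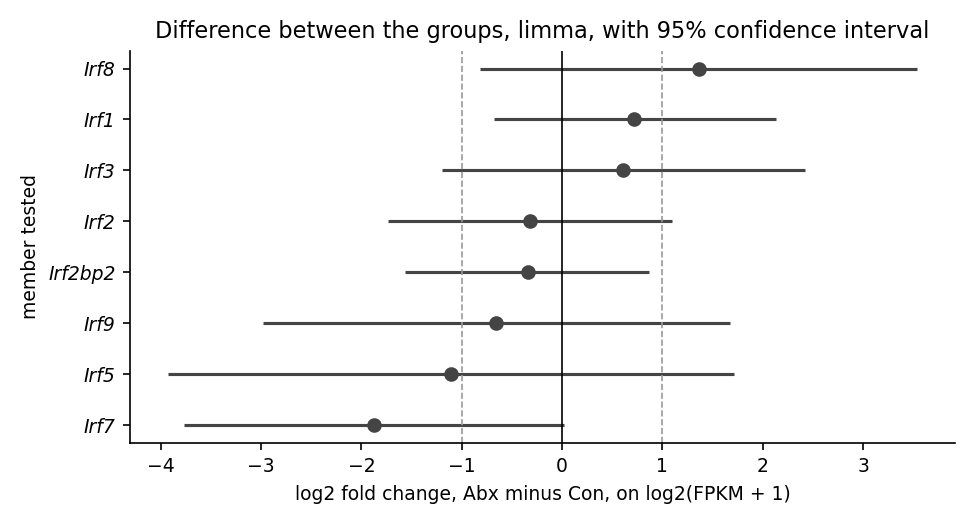
Log2 fold change of the 8 members tested, Abx minus Con, from limma on log2(FPKM + 1). Points are estimates, bars are 95% confidence intervals and the dashed lines mark a fold change of 2. All bars cross 0, with that of Irf7 (-3.77 to 0.02) closest to clearing it.

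Irf7, the factor that amplifies the type 1 interferon response, had the most negative log2 fold change of the family in the fit over all 6 libraries. Its level was 8.18, 3.91 and 7.04 FPKM in Con libraries 1, 2 and 3, and 0.25, 4.07 and 0.16 FPKM in Abx libraries 1, 2 and 3. Abx libraries 1 and 3 were below every Con library, but Abx library 2 lay inside the Con range. Abx libraries 1 and 3 also had the fewest genes at 1 FPKM (7074 and 7572, against 8193 in Abx library 2). The part of detection in the level of Irf7 was not tested. The log2 fold change was -1.87 (standard error, SE, 0.81, adjusted p = 0.455 by limma, 95% confidence interval -3.77 to 0.02). An exact two-sided permutation test gave p = 0.2, and groups of 3 and 3 cannot give a p under 0.1. Without Abx library 2 the log2 fold change was -2.57 (limma adjusted p = 0.189), still not called. After quantile normalization of all 6 libraries it was -1.23 (limma adjusted p = 0.565).

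The gene for Irf7 (ENSMUSG00000025498) lies on chromosome 7 of GRCm38 from 141262706 to 141266481, on the minus strand, and the neighbouring gene Phrf1 shares 45 bases of exon with it on the other strand. The library kit does not keep the strand, so reads in that stretch cannot be assigned to either gene. Irf1, Irf3, Irf5 and Irf9 share 88 to 411 bases of exon with a neighbour in the same way (Irf9 with Rnf31 on its own strand), and Irf2, Irf4 and Irf8 share none. The study's primer pair for Irf7 qPCR shows which part of the transcript that assay reads, in capitals here throughout.
Irf7 forward: GAGACTGGCTATTGGGGGAG
Irf7 reverse: GACCGAAATGCTTCCAGGG
The forward primer lies at chr7:141265497-141265516 and the reverse primer at chr7:141265415-141265433, spanning 102 bases, both within coding exon 3 of the transcript ENSMUST00000026571.10. Of the 13 Irf7 transcripts in GENCODE M21, 9 hold both primer sequences, and no transcript of another gene does. The left-out entry under the same symbol was at 39.2, 0 and 35.6 FPKM in Con against 0.15, 0.04 and 0.04 FPKM in Abx. Its identifier is that of Mlf1, so these values say nothing of Irf7.

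Irf3, the factor that starts the interferon response, and Irf5, which acts downstream of Toll-like receptors, are activated by phosphorylation, so their RNA level is not their activity. Irf3 (ENSMUSG00000003184, chr7:44997648-45002848, + strand) was at 22.3, 6.31 and 15.6 FPKM in Con against 6.59, 29.5 and 42.5 FPKM in Abx. The 2 highest libraries were Abx, but Abx library 1 was the second lowest of all. The log2 fold change of Irf3 was 0.61 (SE 0.78, adjusted p = 0.840 by limma). Without Abx library 1 it was 1.37 (adjusted p = 0.419), and without Abx library 3 it was 0.11.

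The left-out second entry under the symbol Irf3 went the other way. It was at 6.86, 15.7 and 1.32 FPKM in Con against 0.08, 0 and 0 FPKM in Abx, which are values of Zfand4.

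Irf5 (ENSMUSG00000029771, chr6:29526625-29541871, + strand) was at 8.94, 8.16 and 14.6 FPKM in Con, a narrow range for this family, against 29.7, 0 and 3.60 FPKM in Abx. Abx libraries thus held both the highest and the lowest value. The log2 fold change was -1.11 (SE 1.21, adjusted p = 0.802 by limma). It turned to 0.08 without Abx library 2, where Irf5 was listed at 0, and was -2.39 (adjusted p = 0.340) without Abx library 1. The spread of Irf5 within groups, an SD of 1.77 on the log2 scale, was as large as or larger than in 85.2% of the 6069 genes tested that had a mean level in the range of the members (1.64 to 27.4 FPKM), where the median SD was 1.10.

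Irf9, the DNA-binding subunit of ISGF3 (ENSMUSG00000002325, chr14:55603571-55610030, + strand), was either present or almost undetected. It was at 5.83, 3.23 and 0.04 FPKM in Con against 0.09, 5.85 and 0.03 FPKM in Abx. The 3 libraries above 1 FPKM were Con libraries 1 and 2 and Abx library 2. Its log2 fold change was -0.66 (SE 1.0, adjusted p = 0.865 by limma), and it ranged from -0.09 without Con library 1 to -1.55 without Abx library 2. Such gaps were common. At least 1 library under 0.1 FPKM was found in 3 of the 8 members tested (37.5%), and in 46.4% of the genes tested in the same range of mean level.

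Stat2, a partner of Irf9 in ISGF3, reached 1 FPKM in Con libraries only. It was at 2.68, 0 and 3.53 FPKM in Con and listed at 0 in all 3 Abx libraries. It was under the filter of the test, and the groups overlapped, since Con library 2 was at 0 as well. Irf9 and Stat2 were both at 1 FPKM or more in Con library 1 alone.

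Irf1, an activator that interferons induce (ENSMUSG00000018899, chr11:53770014-53778374, + strand), was detected in every library. It was at 28.6, 6.77 and 10.7 FPKM in Con against 15.8, 29.7 and 22.6 FPKM in Abx. The means were 15.4 ± 11.6 and 22.7 ± 6.92 FPKM (SD, n = 3 each), with Con library 1 within the Abx range. The log2 fold change was 0.72 (SE 0.61, adjusted p = 0.732 by limma), and it ranged from 0.30 without Con library 2 to 1.27 without Con library 1.

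Irf2, which competes with Irf1 for its sites (ENSMUSG00000031627, chr8:46739732-46847458, + strand), was far lower. Its level was 3.32, 0.63 and 1.95 FPKM in Con against 1.93, 1.56 and 0.43 FPKM in Abx. Irf1 exceeded Irf2 in every library, by a ratio of 5.50 to 10.7 in Con and 8.21 to 52.5 in Abx, and the ratios overlapped between groups. For Irf2 the log2 fold change was -0.32 (SE 0.61, adjusted p = 0.891 by limma), and it was 0.38 after quantile normalization, so no direction is given.

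Irf8, a factor of B cells, dendritic cells and macrophages (ENSMUSG00000041515, chr8:120736358-120756694, + strand), had the most positive log2 fold change of the family in the fit over all 6 libraries. It was at 1.97, 0.01 and 5.50 FPKM in Con against 9.90, 2.28 and 8.26 FPKM in Abx. Con library 3 lay above Abx library 2, so the groups overlapped. The log2 fold change was 1.36 (SE 0.94, adjusted p = 0.675 by limma), and it was 0.65 without Con library 2.

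Irf8 is also a B cell factor, so B cell markers were measured beside it. Summed over the 11 B cell markers, the level was 386 to 519 FPKM in Con and 857 to 916 FPKM in Abx, and of the 9 markers tested, 2 were higher in Abx by the unadjusted p and 1 was lower, beside 4.74% and 6.25% of all genes. The 2 were the immunoglobulin genes Ighm (109 to 159 FPKM in Con, 358 to 429 FPKM in Abx) and Igkc (127 to 218 and 261 to 365 FPKM), and the lower one was Cd22 (2.74 to 11.0 and 0.06 to 1.33 FPKM). The receptor subunits Cd79a (39.2 to 63.6 and 61.5 to 138 FPKM) and Cd79b (69.5 to 117 and 31.0 to 57.4 FPKM) passed no threshold. Pax5 was listed at 0 in 4 libraries, and Ebf1 stayed under 1 FPKM in all 6. The part of B cells in the level of Irf8 was not tested, and more cells of a type and more RNA per cell cannot be told apart in these libraries.

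Markers of other cells were measured as well. The 11 T cell markers summed to 1240 to 1410 FPKM in Con and 2550 to 2900 FPKM in Abx, and 4 of the 7 tested were higher in Abx by the unadjusted p and 0 lower, beside 4.74% and 6.25% of all genes. These 4 were Cd3d (4.46 to 8.32 FPKM in Con, 37.2 to 108 FPKM in Abx), Cd8b1 (0 to 10.2 and 27.1 to 52.2 FPKM), Trbc1 and Trbc2. Most of each sum was Trbc2 (874 to 958 and 1639 to 1803 FPKM). Cd3e (1.55 to 7.57 and 4.31 to 18.5 FPKM) overlapped between the groups. Of the 7 tested, 6 had a positive log2 fold change, and Trac a negative one (-0.19), at 3.01 to 11.7 and 0.22 to 21.2 FPKM. Cd8a was at 3.25 FPKM in Con library 1 and at most 0.04 FPKM elsewhere. Cd4 was at 7.46 FPKM in Abx library 2 and listed at 0 elsewhere. The 7 NK cell markers summed to 2.45 to 27.1 FPKM in Con and 215 to 235 FPKM in Abx, nearly all of it Gzma in Abx, with Klrb1c, Prf1 and Tbx21 listed at 0 in every library. The 17 myeloid and dendritic cell markers summed to 259 to 455 FPKM in Con and 274 to 580 FPKM in Abx. Lyz2 was at 101 to 368 FPKM and Tyrobp at 27.0 to 210 FPKM. Fcer1g (0.24 to 104 FPKM) and Cd68 (0.22 to 30.2 FPKM) varied widely between libraries of both groups. In contrast, Csf1r, the receptor that defines macrophages, was at 0.08 to 0.36 FPKM, and Flt3 and Clec9a of dendritic cells were under 0.1 FPKM. Xcr1, another dendritic cell marker, was at 8.13, 10.4 and 16.3 FPKM in Con against 4.14, 0.19 and 1.52 FPKM in Abx. It was the 1 lower gene by the unadjusted p among the 6 tested in this list, with 0 higher. The part of these cells in the values of the Irf genes was not tested.

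Irf4, which ILC2s and activated lymphocytes use (ENSMUSG00000021356, chr13:30749226-30766976, + strand), was all but undetected in these libraries. It was at 0.01, 0.02 and 1.63 FPKM in Con against 0.02, 0.02 and 0.01 FPKM in Abx. Only Con library 3 passed 1 FPKM, so Irf4 was not among the genes tested, and the exact permutation test gave p = 0.9.

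Irf2bp2 (ENSMUSG00000051495, chr8:126588296-126593986, - strand) was present in all libraries, at 17.6, 30.5 and 43.8 FPKM in Con against 27.3, 32.5 and 12.5 FPKM in Abx. The means were 30.6 ± 13.1 and 24.1 ± 10.3 FPKM (SD, n = 3 each). Its log2 fold change was -0.34 (SE 0.52, adjusted p = 0.863 by limma), and 0.05 without Abx library 3. The gene shares 1039 bases of exon with Gm26759 on the other strand, the longest such overlap in the family, and reads there cannot be assigned to either without the strand. The related genes Irf2bp1 and Irf2bpl were lower. Irf2bp1 was at 5.90, 7.76 and 8.62 FPKM in Con against 18.3, 0.03 and 4.68 FPKM in Abx. Irf2bpl was at 0.02, 7.19 and 2.51 FPKM in Con against 13.1, 2.43 and 5.17 FPKM in Abx.

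Within a library, the 8 Irf genes summed to 79.1, 29.0 and 57.1 FPKM in Con against 64.3, 73.0 and 77.6 FPKM in Abx. The mean sums were 55.1 ± 25.1 (Con) and 71.6 ± 6.73 FPKM (Abx; SD, n = 3 each), and the groups overlapped. The leading gene changed from library to library. Irf1 led in Con library 1 (36.1% of the sum) and Abx library 2 (40.7%), Irf3 in Con library 3 (27.3%) and Abx library 3 (54.8%), and Irf5 in Con library 2 (28.1%) and Abx library 1 (46.2%). Between 4 and 7 of the 8 genes reached 1 FPKM in a library, with 5 to 7 in Con and 4 to 6 in Abx.

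**Figure D3:**
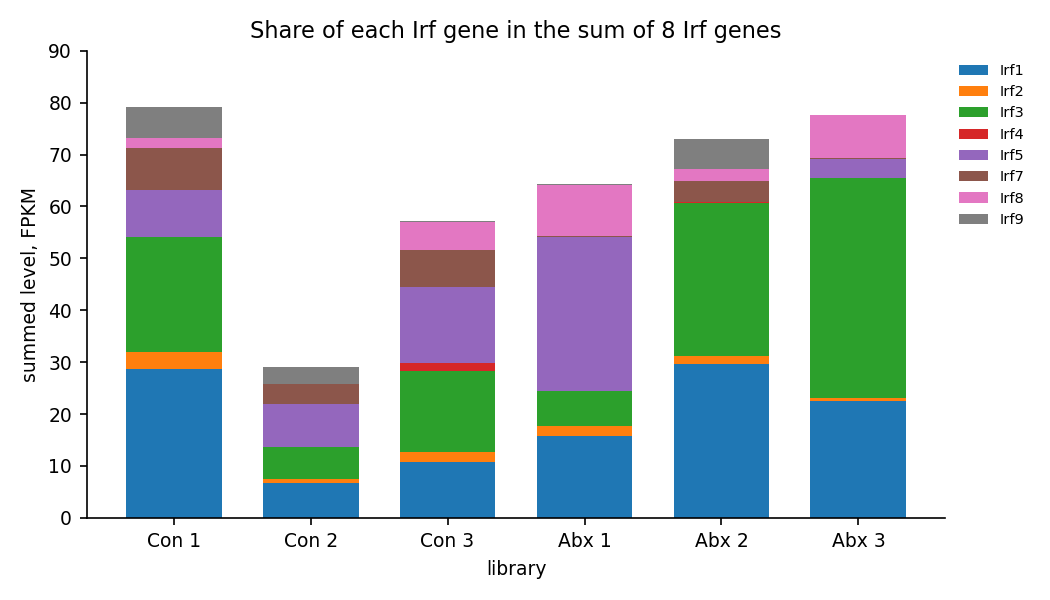
Level in FPKM of the 8 Irf genes, stacked for each library. The height of a bar is their sum, from 29.0 FPKM in Con library 2 to 79.1 FPKM in Con library 1, and the colours show that Irf1, Irf3 or Irf5 makes up the largest part in different libraries of both groups.

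For each member tested, the gene with the nearest pattern over the 6 libraries was found from the mean absolute difference of log2(FPKM + 1), each gene centred on its own mean. For Irf7 this was Ttc13, with a mean difference of 0.04 on the log2 scale. Ttc13 was at 7.64, 3.24 and 6.01 FPKM in Con against 0.05, 3.24 and 0.02 FPKM in Abx, low in the same 2 libraries as Irf7. For Irf9 it was Uxs1 (0.09), for Irf3 Prpf38b (0.14), for Irf2bp2 Krt83 (0.17), for Irf2 Akap13 (0.18), for Irf1 Gm13160 (0.20), for Irf8 Pdpk1 (0.22) and for Irf5 Pygb (0.30). The search covered 8718 genes and only 6 libraries.

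The genes around the family were grouped by their place in the pathway. Over the 6 lists, 0 genes were called by limma, and 8 genes had an unadjusted p under 0.05. Each list is given by its counts and its median log2 fold change, beside -0.06 over all genes tested. By the same rule, 4.74% of all genes tested were higher in Abx and 6.25% lower.

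Of the 13 genes of the interferon receptors and the ISGF3 signal, 10 were tested, and their median was 0.25. By the unadjusted p, 1 was higher in Abx and 0 were lower. The gene was Ifngr1, a subunit of the interferon gamma receptor, at 112, 79.4 and 94.3 FPKM in Con against 167, 130 and 176 FPKM in Abx. Its groups did not overlap, with a log2 fold change of 0.72 (SE 0.25, adjusted p = 0.294 by limma). Ifnar1, a subunit of the type 1 interferon receptor, was at 0, 11.6 and 8.24 FPKM in Con and listed at 0 in all 3 Abx libraries, which left it under the filter. The other subunit Ifnar2 was at 24.8, 7.70 and 13.4 FPKM in Con against 12.9, 14.3 and 24.2 FPKM in Abx.

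The sensors and kinases upstream of Irf3, Irf5 and Irf7 had the lowest median of the 6 lists, -0.67 over the 16 of 24 genes tested. Of them, 2 were lower in Abx by the unadjusted p and 0 were higher. Ikbke, a kinase that phosphorylates Irf3 and Irf7, was at 6.03, 1.87 and 5.84 FPKM in Con against 0.04, 0.02 and 0 FPKM in Abx. Mb21d1, the cytosolic DNA sensor cGAS, was at 1.81, 3.57 and 5.26 FPKM in Con against 0.03, 0.36 and 0.01 FPKM in Abx. In both genes only the 3 Con libraries reached 1 FPKM, so they entered the test through Con alone. That all Abx libraries were under all Con libraries was thus set by the filter. It adds no support for a difference, and the unadjusted p is not free of this selection. The log2 fold changes were -2.34 for Ikbke (SE 0.55, adjusted p = 0.126 by limma) and -1.94 for Mb21d1 (SE 0.51, adjusted p = 0.160 by limma), so neither was called. Tbk1, the kinase related to Ikbke, was at 15.8, 0.65 and 9.72 FPKM in Con against 16.0, 0 and 23.8 FPKM in Abx. The median of the list was -0.08 among genes with a mean of at least 5 FPKM and -0.43 without Abx library 1. Other alternatives moved it further from 0, to -0.99 and -1.23 with pseudocounts of 0.1 and 0.01 and to -0.92 without Abx library 2.

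**Figure D4:**
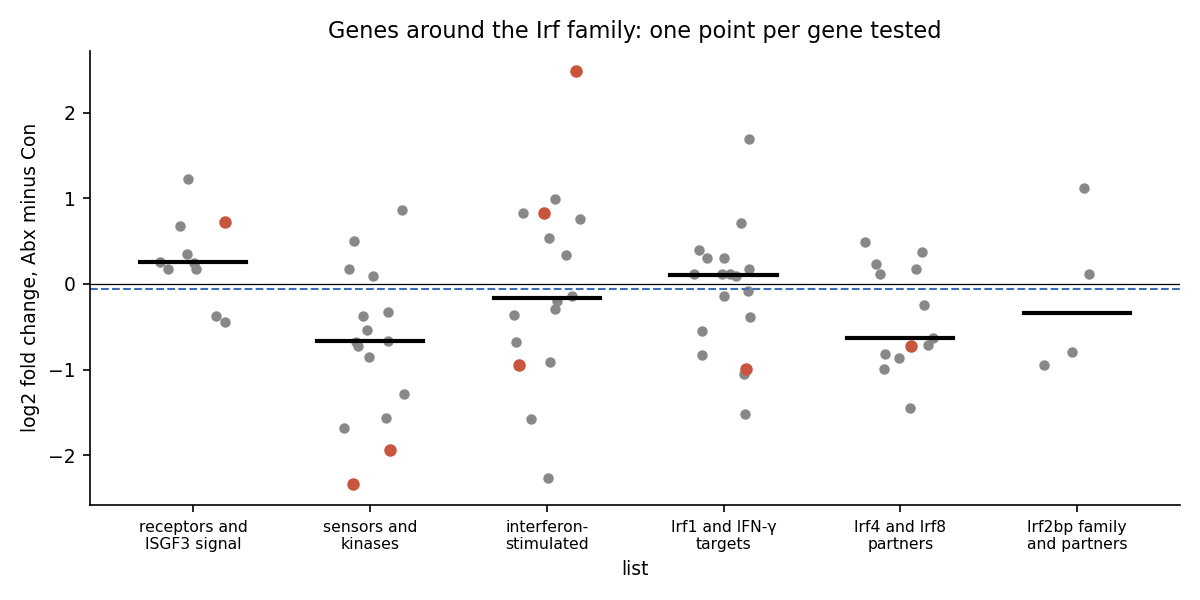
Log2 fold change (Abx minus Con, limma on log2(FPKM + 1)) of the genes tested in 6 lists around the family, with 1 point per gene. Red points had an unadjusted p under 0.05, black bars are list medians (0.25, -0.67, -0.17, 0.10, -0.63 and -0.34 from left to right), and the dashed line is the median of all genes tested (-0.06). Points lie on both sides of 0 in every list.

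Among the interferon-stimulated targets, 16 of 38 genes were tested and the median was -0.17. The sign of this median was not stable, at 0.12 without Con library 1, 0.18 without Abx library 1 and 0.04 with no filter. There, 2 were higher in Abx and 1 was lower at an unadjusted p under 0.05. Parp14, an ADP-ribosyltransferase, was at 0.04, 0.19 and 0.17 FPKM in Con against 7.24, 4.31 and 4.78 FPKM in Abx. Its log2 fold change was 2.48 (SE 0.53, adjusted p = 0.105 by limma). Only the 3 Abx libraries reached 1 FPKM, so Parp14 entered the test through Abx alone. The lack of overlap was thus set by the filter, and the unadjusted p is not free of this selection. Ifi27 was at 38.7 to 81.8 FPKM in Con and 97.8 to 124 FPKM in Abx, with a log2 fold change of 0.83 (SE 0.33, adjusted p = 0.405 by limma). Ifitm2, which restricts virus entry, was at 55.9 to 135 FPKM in Con and 40.8 to 66.6 FPKM in Abx, with a log2 fold change of -0.95 (SE 0.40, adjusted p = 0.444 by limma). None of the 3 was called. The other 22 genes of this list were under the filter, and 11 of the 38 stayed under 1 FPKM in all 6 libraries.

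The Irf1 and interferon gamma targets, which include the immunoproteasome and peptide loading genes, had 18 of 25 genes tested and a median of 0.10, which was -0.18 without Abx library 2, -0.02 without Con library 2 and -0.07 after quantile normalization. By the unadjusted p, 0 were higher in Abx and 1 was lower. This was Tapbp, the peptide loading protein tapasin, at 54.5, 90.4 and 59.9 FPKM in Con against 30.8, 38.9 and 30.3 FPKM in Abx. Its groups did not overlap, and the log2 fold change was -0.99 (SE 0.32, adjusted p = 0.266 by limma).

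Among the partners and neighbours of Irf4 and Irf8 in lymphocytes, 13 of 19 genes were tested, with a median of -0.63, and 0 were higher and 1 was lower at an unadjusted p under 0.05. Junb, an AP-1 subunit, was at 3179, 3772 and 3994 FPKM in Con against 2937, 2015 and 1783 FPKM in Abx, with no overlap and a log2 fold change of -0.73 (SE 0.22, adjusted p = 0.226 by limma). Batf, the AP-1 protein that binds DNA with Irf4, was at 51.2, 85.4 and 31.2 FPKM in Con against 10.4, 44.6 and 34.2 FPKM in Abx, which overlap. Spi1, the Ets partner of Irf8, was at or under 0.12 FPKM in all libraries but Con library 1 (1.3 FPKM). Prdm1, a repressor that Irf4 induces, was at 2.33, 0.01 and 1.84 FPKM in Con and no more than 0.02 FPKM in Abx. The median of this list was -0.16 without Abx library 1, -0.31 without Abx library 2 and -0.36 without Con library 1.

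The Irf2bp list had 4 of 6 genes tested, a median of -0.34 and 0 genes at an unadjusted p under 0.05. Vgll4, a transcriptional cofactor that can bind Irf2bp2, was at 44.6, 24.4 and 33.1 FPKM in Con against 24.9, 12.4 and 14.7 FPKM in Abx. The lowest Con library was under Abx library 1, so the groups overlapped. The median of the list was 0.30 without Abx library 2 and 0.05 with no filter.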

How the data were processed

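SMART-seq was run on 6 libraries of 1000 sorted lung ILC2s each, 3 labelled as exposed before birth (Abx) and 3 as control (Con). The deposited values are FPKM per gene, which the authors made with Cutadapt, HISAT2 and StringTie. Their methods name a human annotation (Ensembl v96), but the genes carry mouse identifiers, and the submitters' processing notes list Bowtie 0.12.2, mm8 and mm9 with no role. Coordinates and exon overlaps were taken from GENCODE M21 (GRCm38) by gene identifier, and promoter windows from RefSeq. Depth is unknown, so precision comes from the spread between libraries. At the best of many trial step sizes, only 26.7% to 30.4% of low values lay near steps of whole reads. A single step size would give 20.0% by chance and the best of many would give more, so no depth was read from these steps.

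The 8718 genes that reached 1 FPKM in 3 or more libraries were compared on log2(FPKM + 1), which understates changes of low genes, with limma 3.58.1 in R 4.3.3 (lmFit, eBayes with trend), two-sided, with Benjamini-Hochberg adjustment over all of them. The authors' DESeq2 needs counts and was not repeated. The script was tested on simulated data, and members also had an exact two-sided permutation test.

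The members, lists and markers were chosen with earlier results of these data known. Named genes are all members, list genes at an unadjusted p under 0.05 (at most 4 per list and direction), direct partners, a few markers, Xist and the most alike genes, and some of the genes that this rule names are not reported here. Icos, Areg, Arg1, Ighm, Igkc, Cd22, Cd79b, Cd3d, Cd8b1, Trbc1, Trbc2, Trac, Cd8a, Cd4, Xcr1, Pax5, Ebf1, Gzma, Klrb1c, Prf1, Tbx21, Tyrobp, Fcer1g, Cd68, Flt3 and Clec9a were named after their values were seen. Alternatives were pseudocounts of 0.1 or 0.01, quantile normalization, median centring, no filter, a mean of at least 5 FPKM, robust variance, leaving out each library and a replicate block. Python 3.11.15 (pandas 2.3.3, numpy 2.4.6) was used for tables.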

Additional observations from a re-analysis of the deposited data

How the results depend on the processing

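No member was called under any alternative run. In the fit over all 6 libraries, 0 members had an unadjusted p under 0.05 with a fold change over 2. Irf7 passed that looser threshold without Abx library 2 (log2 fold change -2.57), and Irf5 did without Abx library 1 (-2.39). Neither was called. Of 108 alternative values of the 8 members, 4 changed direction. Irf2 was at 0.38 after quantile normalization and at 0.01 without Con library 1, Irf5 at 0.08 without Abx library 2 and Irf2bp2 at 0.05 without Abx library 3, all as log2 fold changes, and the cause was not tested. With each library left out in turn, Irf2 ranged from -0.69 to 0.01, Irf5 from -2.39 to 0.08 and Irf2bp2 from -0.68 to 0.05. Irf7 stayed negative in all 13 of its alternatives (-3.43 to -1.23, adjusted p 0.189 to 0.744) and Irf8 positive in its 13 (0.65 to 3.25, adjusted p 0.453 to 0.929). Over all genes, 5 were called. The count was 0 with a pseudocount of 0.1 or 0.01, with median centring, with no filter and with the replicate block, 7 with quantile normalization (5 higher, 2 lower) or with a mean of at least 5 FPKM, 5 with robust variance, and 0 to 2 with each library left out. The 2 calls without Abx library 2 were both lower and shared 0 genes with the 5. With the unadjusted p, 814 genes passed. Under the block the members' values were the same and 0 were called. Libraries with the same number did not deviate together (correlation of their deviations -0.020, -0.029 and 0.010), so the numbers were not read as pairs. With unknown depth, a value near 0 cannot be told from a transcript missed at low input.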
